A study of Mus musculus with 10 samples.

Results

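The comparison of suprabasal with basal epidermal keratinocytes of wild type mice covered 9518 of the 12197 loci listed in either deposited table. A locus entered when it had a value of status OK in both layers and at least 5 FPKM (fragments scaled to transcript length and to the number of mapped fragments) in the higher wild type group. Keratinocytes had been sorted from the skin of FVB/N mice at postnatal day 4, and RNA was sequenced from 3 wild type samples of each layer. The other groups, used here only for reference, held 2 samples of each layer from bitransgenic HGPS (BT) mice. HGPS is Hutchinson-Gilford progeria syndrome, which is caused by progerin, a truncated lamin A, and the series asks what progerin does to epidermal cells. The labels name neither the promoter that drives the transgene nor the surface marker used for sorting. The 3 wild type title stems occurred in both layers, and whether a stem stands for an animal is not stated. The same holds for the 1 bitransgenic stem found in both layers.

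The epidermis renews itself from a single layer of basal cells that sit on the basement membrane, hold on to it through integrins and hemidesmosomes, and divide. A cell that leaves the membrane enters the suprabasal layers, stops dividing, exchanges keratins 5 and 14 for keratins 1 and 10, and then builds the cornified envelope, a crosslinked protein shell sealed by lipids. Skin of this age also holds growing hair follicles, sebaceous glands and, in smaller numbers, melanocytes, nerve-associated cells, fibroblasts and immune cells, which a sort can carry along. FVB/N mice are albino, yet albino skin still has melanocytes.

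The deposited tables give 1 value per layer and genotype, already pooled over the samples, so no wild type value has an error of its own, the depth of the samples is unknown and the layers could not be tested against each other. The layer ratio used throughout is log2((suprabasal + 1)/(basal + 1)) of the FPKM values, from which the median of all compared loci (-0.045 before centring) was subtracted because the layers had been normalized separately. A positive log2 ratio means a higher level in suprabasal cells, and the median over all compared loci is 0 by this centring. As a yardstick, a reference error was formed for each locus from the standard errors implied by the authors' deposited p-values for bitransgenic against wild type in each layer, combined over both layers. Its median over loci was 0.64 on the log2 scale, its 10th percentile 0.46 and its 90th 1.28. It is a scale for reading the ratios and not a test: it treats the layers as independent and leaves out any error of the scaling between the tables. It also holds the error of the bitransgenic groups, of 2 samples each, which have no part in the wild type ratio. It is therefore not the error of the wild type ratio itself.

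A log2 ratio of 1 or more in size counted as past the fold. In wild type mice 662 of 9518 loci (6.96%) were past the fold with the higher level in suprabasal cells, and 477 (5.01%) with the higher level in basal cells. With both layers scaled to a common sum in place of centring, which lowered the median of all loci by 0.10, the counts were 547 and 620, so the balance between the directions rests on the scaling and is not read as a result. Past a log2 ratio of 2 in size there were 134 loci higher in suprabasal and 24 higher in basal cells. Of the loci past the fold that had a reference error, 36.7% of the suprabasal and 26.8% of the basal ones also lay beyond 2 reference errors. The same fold separated fewer loci between the genotypes within a layer. Bitransgenic cells were higher at 2.07% and lower at 4.74% of loci in the basal layer, and higher at 2.92% and lower at 4.40% in the suprabasal layer. Between the layers of bitransgenic mice, 9.90% of 9175 loci were higher in suprabasal and 6.60% higher in basal cells (908 and 606 loci, or 716 and 844 with the common sum scaling). With a pseudocount of 5 FPKM in place of 1, some of the genes called below were within the fold. Among those named by the rule in the processing section, these were Tgm3, Col4a6, Gjb2, Fzd7, Fzd1, Runx2, Serpinb7, Hspd1, Col6a1 and Thy1. Companion genes near the fold, such as Wnt4 and Lama3 with log2 ratios of -1.01 and -1.02, were not part of this check. At the edge of the fold, Hal stood just inside with 4.66 FPKM in basal and 9.99 in suprabasal cells, and Sash1 just outside with 5.12 and 10.9. At the edge of the minimum level, Cyb5rl entered with 5.006 FPKM in its higher group and PYURF was left out with 4.999.

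**Figure D1:**
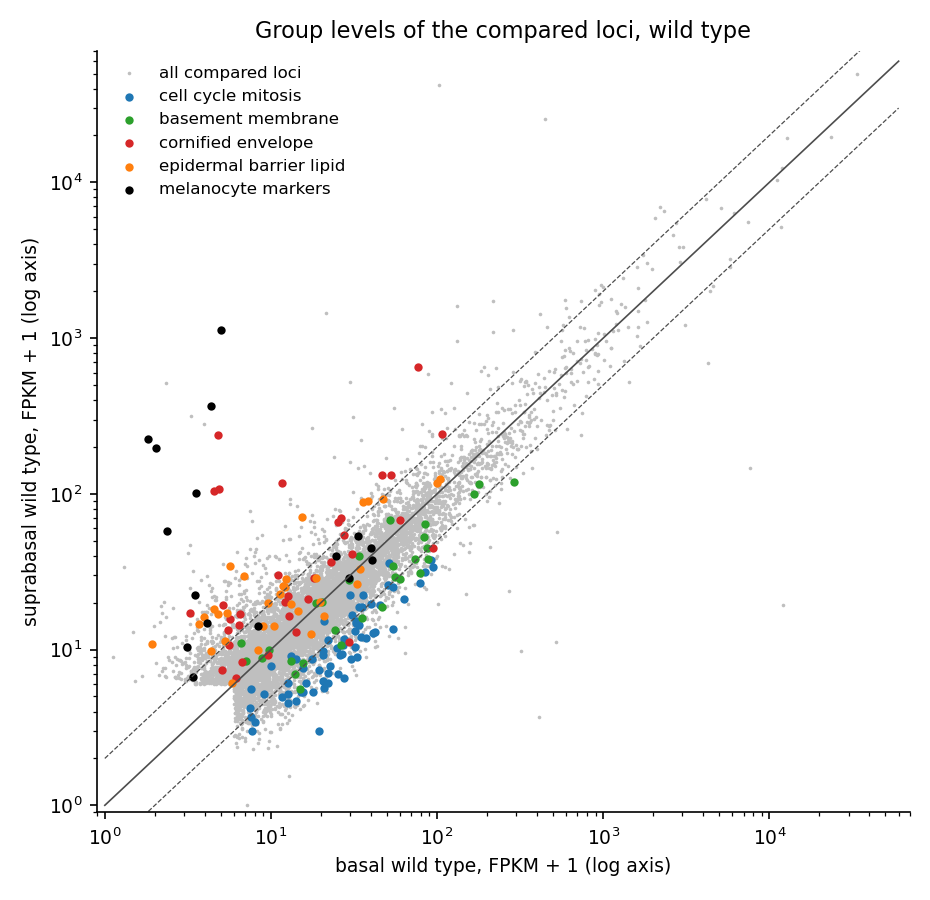
Wild type group levels of the 9518 compared loci, basal on the x axis and suprabasal on the y axis, as FPKM + 1 on log axes; the solid line marks equal levels and the dashed lines a ratio of 2 either way before centring. Mitosis genes (blue) lie under the solid line, basement membrane genes (green) mostly so, most cornified envelope and barrier lipid genes (red, orange) above it, and the leading melanocyte markers (black) far above it at the left.

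The markers of the layers stood on the side their labels give, with different sizes. Itga6, the integrin chain of the hemidesmosome (chr2:71745616-71858470, mm10), was at 241 FPKM in basal and 106 in suprabasal cells, a log2 ratio of -1.14 with a reference error of 0.59. Since the sorting marker is not named in the labels, Itga6 cannot be counted as independent of the sort. Krt15, a keratin of basal cells, was at 1602 and 1025 FPKM (log2 ratio -0.60), which is not past the fold. Krt10, the type I keratin of suprabasal cells (chr11:99385252-99389497), was at 2319 FPKM in basal and 6574 in suprabasal cells, a log2 ratio of 1.55 with a reference error of 1.67. Flg, which encodes filaggrin of the granular layer (chr3:93273541-93293691), was at 106 and 243 FPKM, a log2 ratio of 1.24 with a reference error of 0.72. The basal group therefore held Krt10 RNA at a level above its own Krt15, and the sorted groups differed in degree for these markers. In bulk RNA a lower level can come from fewer cells of a type or from less RNA per cell, and these cannot be told apart here. Xist, which is made from the inactive X chromosome, was at 0.258 FPKM in basal and 0.236 in suprabasal wild type cells, so the layers matched in this respect, whereas both bitransgenic groups were above 100 (108 and 103). The Y-linked Ddx3y was at 32.1 and 31.2 FPKM in basal and suprabasal wild type cells and at 20.7 and 14.1 in bitransgenic cells, and Eif2s3y at 35.2 and 38.9 against 23.0 and 28.6. Sex-linked transcripts therefore differed between the genotypes, with Xist and Y-linked RNA both present in the bitransgenic groups. The labels give no sex.

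**Figure D2:**
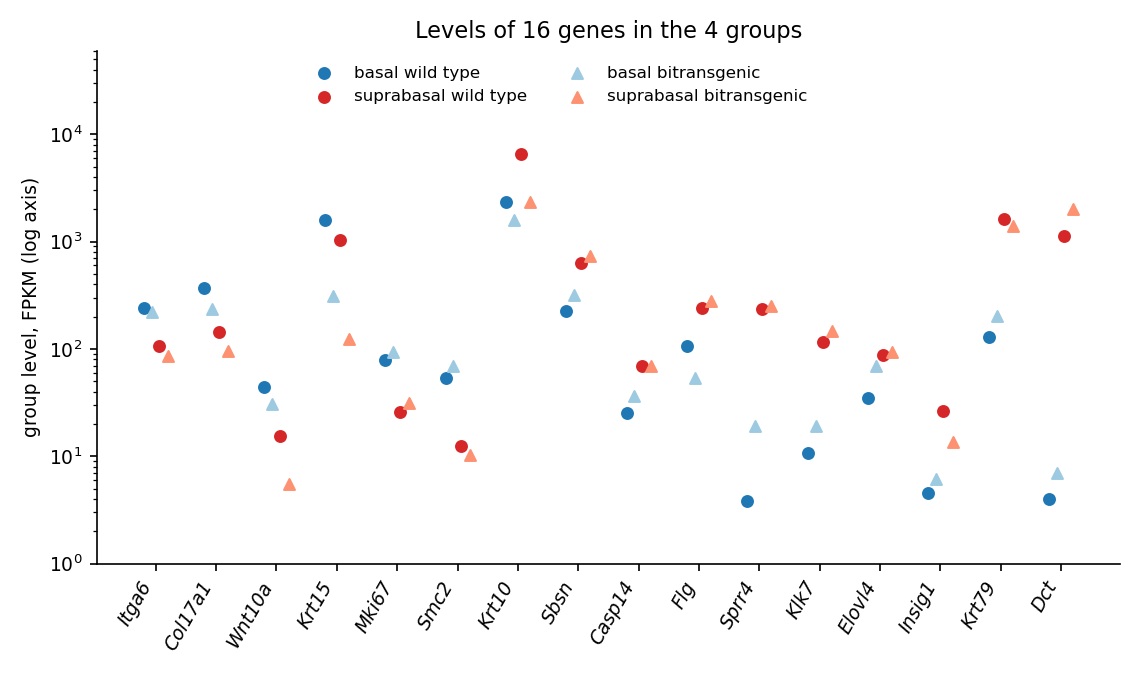
Group levels in FPKM on a log axis for 16 genes in basal (blue) and suprabasal (red) cells of wild type (circles) and bitransgenic (triangles) mice, 1 pooled value per group and no error bars. From Itga6 to Smc2 the basal wild type value is the higher one, from Krt10 to Dct the suprabasal value is, and Dct has the widest gap, 4.00 against 1122 FPKM.

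Adhesion to the basement membrane was the first side of the basal profile. Of the 32 compared loci of the basal keratinocyte list, 13 were past the fold towards basal cells and 1 towards suprabasal cells, with a median log2 ratio of -0.80 (bitransgenic groups -0.72). The anchoring collagen of the hemidesmosome, Col17a1 (chr19:47645873-47692237), was at 373 FPKM in basal and 145 in suprabasal cells, a log2 ratio of -1.31 with a reference error of 0.69. Its partner Itgb4, the integrin chain that pairs with Itga6, was at 164 and 62.5 FPKM (log2 ratio -1.34). The hemidesmosome linkers Dst and Plec and the tetraspanin Cd151 were within the fold, with log2 ratios of -0.73, -0.47 and -0.25. Fermt1, which encodes kindlin-1, an activator of integrins in keratinocytes, was at 21.7 and 7.65 FPKM (log2 ratio -1.35). Itgb6, a chain of an integrin that binds the latent form of TGF-beta, was at 28.3 and 8.70 FPKM (log2 ratio -1.55), but in bitransgenic groups the suprabasal value was the higher one, 22.4 against 12.2 FPKM. In the hemidesmosome and integrin list 7 of 22 loci were past the fold towards basal cells, and Fermt2, the kindlin of mesenchymal and many other cells, stood alone on the other side with 1.19 FPKM in basal and 18.1 in suprabasal cells (log2 ratio 3.17). Vcl, which encodes vinculin of focal adhesions, was level at 59.6 and 57.6 FPKM.

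Genes of the underlying matrix had ratios of a similar size. Of 29 compared basement membrane loci, 8 were past the fold towards basal cells and 0 towards suprabasal cells (median -0.69, bitransgenic -0.51). Lama3 and Lamb3, which encode chains of the laminin to which hemidesmosomes bind, were at 58.5 against 27.5 FPKM and 86.3 against 43.9 FPKM in basal and suprabasal cells. Their log2 ratios were -1.02 and -0.91, each with a reference error of 0.48. Col4a6, a type IV collagen chain, was at 13.9 and 4.60 FPKM (log2 ratio -1.36), whereas Col4a1 and Col4a2, the chains of most basement membranes, had log2 ratios of 0.07 and 0.03. Smoc2, a secreted matrix protein, was at 45.8 and 17.9 FPKM (log2 ratio -1.26). Postn, which encodes periostin, was the most abundant of the list with 291 FPKM in basal and 119 in suprabasal cells (log2 ratio -1.24), and Sparc followed with 179 and 114 FPKM (log2 ratio -0.60). Both laminin chains were thus lower in suprabasal cells by a log2 ratio near 1, and Col4a1 and Col4a2 were level.

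Keratins could be read only in part, because the tables merge neighbouring keratin genes into single loci. The locus that names Krt5 together with Krt2, Krt6b, Krt72, Krt76 and Krt8 was at 11677 FPKM in basal and 5147 in suprabasal cells (log2 ratio -1.14), and the locus of Krt14 and Krt16 was at 4375 and 1994 FPKM (log2 ratio -1.09). Basal and other keratins cannot be told apart within these loci. Of the keratins with a value of their own, Krt1 was at 1725 FPKM in basal and 3419 in suprabasal cells (log2 ratio 1.03, reference error 1.88), and Krt77, another suprabasal keratin, at 91.7 and 243 FPKM (log2 ratio 1.44, reference error 2.14). Krt79 had the largest keratin ratio, 3.67, with 130 FPKM in basal and 1618 in suprabasal cells and a reference error of 2.21. It marks cells of the hair canal and the sebaceous duct, and in the tables it has, as do Krt1 and Krt77, the span of the whole type II keratin cluster (chr15:101676034-102004342). Krt17, a keratin of the outer root sheath and of stressed epidermis, was at 586 and 1743 FPKM (log2 ratio 1.62).

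Genes of mitosis were lower in suprabasal cells throughout. All 65 compared loci of the list had a log2 ratio below 0, 45 of them past the fold, and the median was -1.24 (bitransgenic -1.37). The summed level of the listed loci was 1861 FPKM in basal and 730 in suprabasal wild type cells, and 1913 and 745 in bitransgenic cells. Ccnb1, the cyclin that starts mitosis (chr13:100778646-100786592), was at 18.6 and 1.99 FPKM, a log2 ratio of -2.67 with a reference error of 0.92. Bub1, a kinase of the spindle checkpoint, was at 26.7 and 5.52 FPKM (log2 ratio -2.04). Smc2 and Smc4, the pair of ATPases at the core of condensin, which compacts chromosomes, were at 53.2 against 12.5 FPKM and 94.1 against 32.9 FPKM (log2 ratios -1.96 and -1.45). Both were past the fold in bitransgenic groups too, with log2 ratios of -2.61 and -1.54. Cdk1, the mitotic kinase, was at 90.7 and 36.7 FPKM (log2 ratio -1.24), but in bitransgenic groups its values were 64.7 and 59.6 FPKM, a log2 ratio of -0.08. The proliferation marker Mki67, picked after its values were seen, was at 78.2 and 25.7 FPKM (log2 ratio -1.52). The smallest ratio of the list, -0.30, belonged to the condensin subunit Ncapg. A further 4 listed loci had a value in the basal table alone, led by Cdca5, which encodes sororin of the cohesin complex, at 7.45 FPKM.

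Promoters were searched for this group, since many cell cycle genes are switched by a repressor complex that binds the cell cycle homology region, TTTGAA, beside CCAAT boxes. RefSeq promoters (build GRCm38.p6, the C57BL/6J reference) were searched over the 250 bases before the start on both strands. CCAAT or its reverse ATTGG was held by 40 of 53 promoters of compared mitosis genes (75.5%), by 36.2% of the 6929 promoters of compared genes and by 34.5% of all 27025 promoters of the table. TTTGAA or its reverse TTCAAA was held by 20 of the 53 (37.7%), by 10.2% of the promoters of compared genes and by 16.3% of all promoters. Promoters of compared DNA replication genes held CCAAT in 30 of 47 (63.8%), so that share is not particular to mitosis genes. They held TTTGAA in 6 of 47 (12.8%), and cornified envelope promoters held it in 5 of 26 (19.2%). These matches are descriptions of letters, base composition was not matched, and no binding was measured. The promoter of Smc2 (chr4:52438971-52439220, plus strand) is shown because its gene had one of the lowest ratios, with the TTTGAA match at -145 and the CCAAT match at -119 in capitals; the matches do not overlap.
Smc2: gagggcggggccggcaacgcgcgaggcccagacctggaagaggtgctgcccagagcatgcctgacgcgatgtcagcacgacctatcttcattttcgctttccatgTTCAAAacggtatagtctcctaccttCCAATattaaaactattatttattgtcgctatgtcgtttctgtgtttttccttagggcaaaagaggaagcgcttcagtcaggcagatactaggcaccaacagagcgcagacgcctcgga

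Of 56 compared DNA replication loci, 17 were past the fold towards basal cells and 0 towards suprabasal cells, and 51 had a ratio below 0 (median -0.74, bitransgenic -0.53). Gins1, a part of the replicative helicase, was at 23.5 and 5.98 FPKM (log2 ratio -1.77, reference error 0.91). Ccne2, a cyclin of the entry into S phase, was at 17.8 and 4.65 FPKM (log2 ratio -1.69), whereas the bitransgenic groups were level at 16.3 and 15.9 FPKM. Dut, which keeps uracil out of DNA, was at 43.0 and 14.8 FPKM (log2 ratio -1.43). Pcna, the sliding clamp and the most abundant of the list, was at 85.1 and 57.4 FPKM (log2 ratio -0.51). None of the Mcm helicase genes, 9 loci in all when taken by name, was past the fold (median -0.62). The 53 loci of replication-dependent histone genes, gathered by name after values were seen, were mixed: 16 were past the fold towards basal and 7 towards suprabasal cells, with a median of -0.53. Many of these genes are near-identical copies, so reads can be shared between them and single values are uncertain.

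Wnt proteins bind Frizzled receptors with Lrp co-receptors and stabilize beta-catenin, and the epidermis makes several of them itself. Over the whole list, 5 of 40 compared loci were past the fold towards basal and 3 towards suprabasal cells, with a median of -0.19. Of all compared loci 5.01% and 6.96% were past it in these directions, so the suprabasal count is near the share of all loci. The 8 compared ligand genes, taken by name, were all lower in suprabasal cells (median -1.12), and these held all 5 of the basal-side loci. Wnt16 was at 33.3 FPKM in basal and 8.82 in suprabasal cells (log2 ratio -1.76, reference error 1.16). Wnt3a was at 13.0 and 3.25 FPKM (log2 ratio -1.68) and Wnt10a at 43.9 and 15.3 FPKM (log2 ratio -1.42, reference error 0.61). Wnt4, the most abundant ligand, was at 74.1 and 35.2 FPKM (log2 ratio -1.01). In bitransgenic groups the ligands had a median of -1.66. The loci past the fold on the suprabasal side were the secreted Dkk3, related to Wnt antagonists, at 4.59 and 17.5 FPKM (log2 ratio 1.77), and the receptors Fzd7 and Fzd1, with log2 ratios of 1.19 and 1.18. The 7 Frizzled loci together ran from -0.93 to 1.19. Ctnnb1, which encodes beta-catenin and was the most abundant of the list, was at 159 and 184 FPKM (log2 ratio 0.25). The Notch pathway, through which basal cells signal to cells that leave the membrane, had 1 of 25 loci past the fold. This was the ligand Jag2, at 75.6 FPKM in basal and 29.6 in suprabasal cells (log2 ratio -1.28, reference error 0.48). The receptors Notch2 and Notch3 had log2 ratios of 0.76 and 0.84, and Notch1, the most abundant receptor, was at 87.1 and 67.9 FPKM (log2 ratio -0.31). The ligands Dll1 and Jag1 had log2 ratios of -0.79 and -0.45.

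The suprabasal profile began with early differentiation. Of 38 compared loci of that list, 12 were past the fold towards suprabasal and 2 towards basal cells, with a median log2 ratio of 0.56 (bitransgenic 0.01). Calml3, a calmodulin-like protein of differentiating epithelia, was at 4.16 FPKM in basal and 34.2 in suprabasal cells (log2 ratio 2.82, reference error 0.79). Dsc1, the desmocollin of upper epidermis, was at 13.7 and 52.5 FPKM (log2 ratio 1.91, reference error 0.51). Krtdap, a small secreted protein of differentiating keratinocytes and the most abundant gene of the list outside the merged keratin locus, was at 4173 and 7776 FPKM (log2 ratio 0.94). The loci on the basal side were the merged keratin locus and Tgm3, a transglutaminase, at 92.9 and 43.7 FPKM (log2 ratio -1.03). Desmosomes were selective: Cdsn, which encodes corneodesmosin, was at 2.26 and 16.1 FPKM (log2 ratio 2.43), while the plaque protein Dsp, desmoplakin, was at 585 and 643 FPKM (log2 ratio 0.18) and Perp at 781 and 961 FPKM (log2 ratio 0.34). Among junction genes the connexin Gjb2 was past the fold with 8.49 and 21.2 FPKM (log2 ratio 1.27), and Panx1, a membrane channel, was past it the other way (36.0 and 9.14 FPKM, log2 ratio -1.82).

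Cornified envelope genes ranged in log2 ratio from -1.34 to 5.67. Of 34 compared loci, 18 were past the fold towards suprabasal and 2 towards basal cells, with a median log2 ratio of 1.11 (bitransgenic 1.63). Sprr4, a small proline-rich envelope protein (chr3:92499886-92501849), was at 3.81 FPKM in basal and 236 in suprabasal cells, a log2 ratio of 5.67 with a reference error of 0.96. Sprr1a appeared as a pair of loci over the same span, with log2 ratios of 4.51 and 3.13. The more abundant of them was at 75.5 and 649 FPKM. Cst6, which encodes cystatin M/E, an inhibitor of the proteases that act on the envelope, was at 3.55 and 104 FPKM (log2 ratio 4.57, reference error 0.59). Klk7, a kallikrein that cleaves corneodesmosomes, was at 10.6 and 116 FPKM (log2 ratio 3.39, reference error 0.54). These 4 genes had ratios of 3 or more in the wild type groups, and in bitransgenic groups their log2 ratios ran from 1.93 to 3.66. The 7 compared Lce1 loci had wild type log2 ratios from -0.07 to 1.53, and bitransgenic ones from 3.14 to 4.74. Their reference errors were wide, from 1.26 to 3.44, and their bitransgenic basal levels low, from 0.295 to 2.19 FPKM. Lor, which encodes loricrin, was at 17.2 and 27.6 FPKM in wild type (log2 ratio 0.70) and had a log2 ratio of 2.90 in bitransgenic groups. The genotypes also differed in sex-linked transcripts, as given above, and what part that has in these ratios was not tested. Tgm3 and Pglyrp4, a peptidoglycan recognition protein (28.3 and 10.2 FPKM, log2 ratio -1.34), were the envelope-list loci on the basal side.

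Many of these genes lie together in the epidermal differentiation complex. Between S100a1 and S100a10 (chr3:90511034-93564643) 35 loci were compared, of which 12 were past the fold towards suprabasal and 3 towards basal cells, with a median of 0.70 (bitransgenic 1.08). S100a11, a calcium-binding protein at the edge of the complex, was one of the 3, at 3104 FPKM in basal and 1220 in suprabasal cells (log2 ratio -1.30, reference error 0.45). The AP-1 motif TGANTCA was held by 8 of 26 RefSeq promoters of compared envelope genes (30.8%), by 4.26% of the promoters of compared genes and by 6.87% of all. The 8 were those of Flg, Ivl, Lor, Scel, Sprr1a, Sprr1b, Sprr2d and Sprr2h. Members of the Sprr family are not separate observations, and Sprr2d and Sprr2h share a merged locus. Base composition was not matched here either, and no binding was measured. Lor (chr3:92083143-92083392, minus strand) and Ivl (chr3:92573736-92573985, minus strand) are shown as envelope promoters with this motif near the start, at -48 and -116, in capitals. Ivl encodes involucrin, an early scaffold of the envelope, and was at 4.14 and 18.4 FPKM (log2 ratio 1.96).
Lor: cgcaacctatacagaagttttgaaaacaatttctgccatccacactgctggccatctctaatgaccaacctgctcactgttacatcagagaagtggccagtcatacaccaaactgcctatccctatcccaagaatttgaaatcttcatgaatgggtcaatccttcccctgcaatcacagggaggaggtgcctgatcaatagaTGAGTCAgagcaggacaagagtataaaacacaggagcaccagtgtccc
Ivl: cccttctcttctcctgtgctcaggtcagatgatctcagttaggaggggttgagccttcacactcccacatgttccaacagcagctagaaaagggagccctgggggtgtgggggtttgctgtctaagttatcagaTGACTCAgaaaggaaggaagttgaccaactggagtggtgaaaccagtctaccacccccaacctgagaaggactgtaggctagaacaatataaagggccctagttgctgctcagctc

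Barrier lipid genes were past the fold at 19 of 33 loci, each with the higher level in suprabasal cells, with 0 the other way and a median of 1.08 (bitransgenic 0.62). They serve the making of very long chain ceramides and their transport into the spaces between corneocytes. Alox12e, an epidermal lipoxygenase, was at 4.70 FPKM in basal and 33.3 in suprabasal cells (log2 ratio 2.63, reference error 0.61). Pla2g2f, a secreted phospholipase of upper epidermis, was at 14.4 and 70.3 FPKM (log2 ratio 2.25, reference error 0.68). The elongases of the Elovl family, 6 loci, all had ratios above 0, from 0.29 to 2.55, with Elovl3 the highest (0.931 and 9.93 FPKM, reference error 3.40). Degs1, which finishes dihydroceramides and was the most abundant of the list, was level at 103 and 123 FPKM (log2 ratio 0.30). Cholesterol synthesis had 5 of 23 loci past the fold, all 5 on the suprabasal side, and a median of 0.68 (bitransgenic 0.19). Insig1, a sterol sensor of the pathway, was at 4.55 and 26.2 FPKM (log2 ratio 2.34, reference error 0.78). Hmgcs1 and Srebf2, the most abundant of the list, had log2 ratios of 0.41 and 0.40.

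In the protease and inhibitor list 14 of 32 loci were past the fold towards suprabasal and 1 towards basal cells (median 0.72, bitransgenic 0.39). Serpinb12 was at 8.41 and 37.5 FPKM (log2 ratio 2.08), and Cstb, which encodes cystatin B and was the most abundant of the list, at 126 and 354 FPKM (log2 ratio 1.52, reference error 0.44). The exception was Serpinb7, at 13.2 and 5.77 FPKM (log2 ratio -1.02). In the lysosome and autophagy list 10 of 38 loci were past the fold towards suprabasal and 0 towards basal cells (median 0.30, bitransgenic 0.56). Ctsc, a cathepsin that activates serine proteases, was at 111 FPKM in basal and 327 in suprabasal cells (log2 ratio 1.59, reference error 0.58). In bitransgenic groups it was level at 169 and 158 FPKM. Gabarapl1, a protein of the autophagosome, was at 11.9 and 35.8 FPKM (log2 ratio 1.56, reference error 0.55).

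Transcription factors of differentiation had smaller ratios. Of 51 compared loci of that list, 8 were past the fold towards suprabasal and 0 towards basal cells, with a median of 0.22. In bitransgenic groups the median was 0.01, with 3 loci past the fold towards suprabasal and 4 towards basal cells. Cebpd, a C/EBP factor, had a log2 ratio of 2.01 at one of its loci (2.60 and 13.0 FPKM, reference error 1.08). Its other locus was within the fold at 0.95 (reference error 4.06), and the bitransgenic log2 ratios of these loci were 0.12 and -0.44. Grhl1, which controls desmosomal cadherins, was at 48.4 FPKM in suprabasal cells (log2 ratio 1.28, reference error 0.46), and Runx2 at 1.77 and 5.82 FPKM (log2 ratio 1.35). The most abundant factors, Klf5 and Klf6, had log2 ratios of -0.09 and 0.61. Trp63, the master factor of basal cells, was at 210 and 146 FPKM (log2 ratio -0.48), and Zfp750, its target in terminal differentiation, at 54.7 and 122 FPKM (log2 ratio 1.19); this pair was picked after its values were seen.

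**Figure D3:**
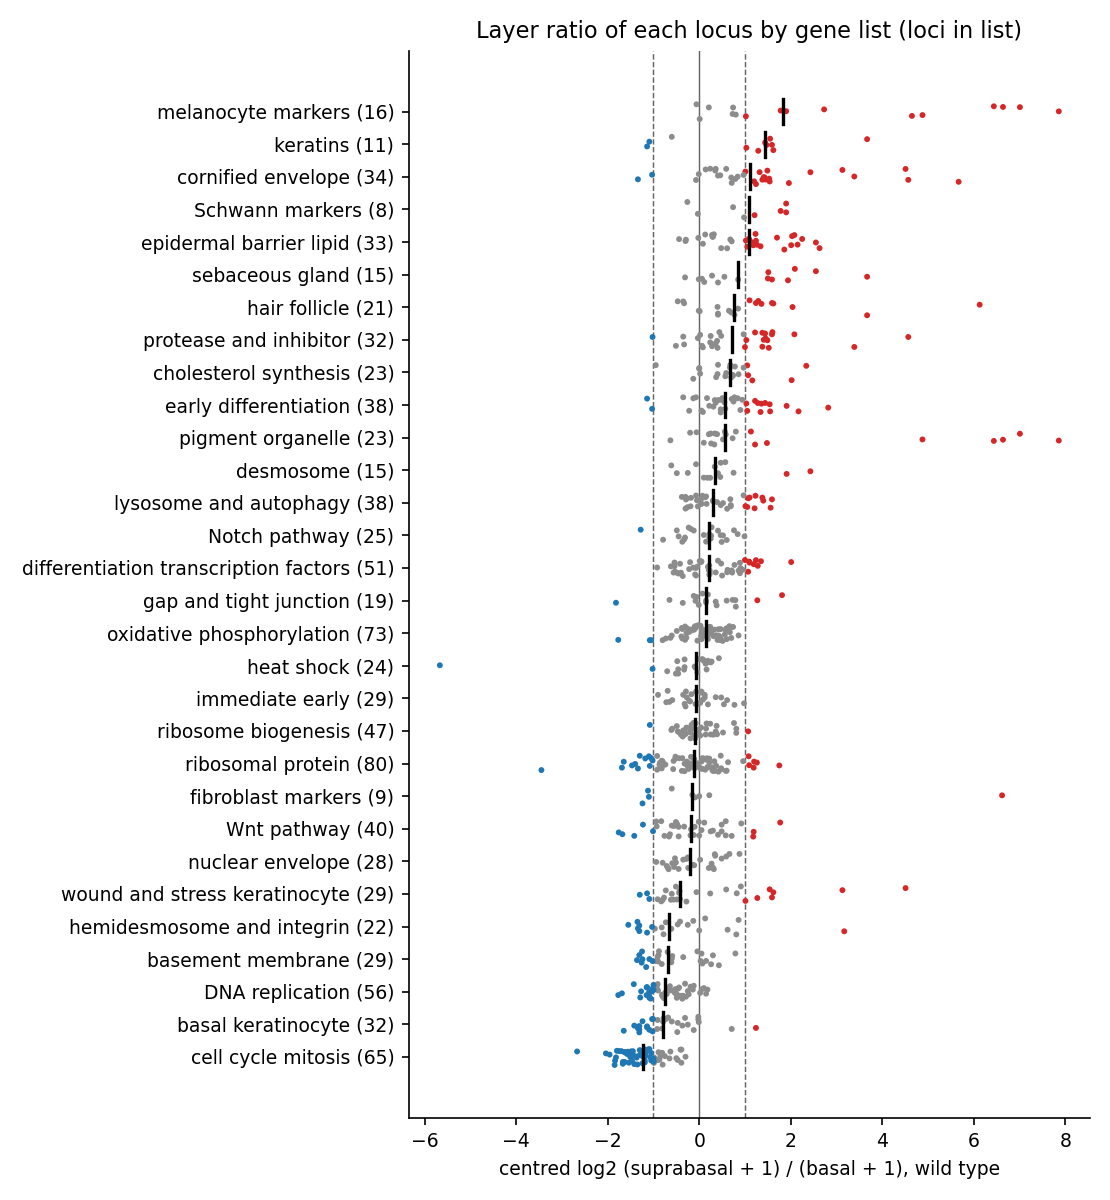
Centred log2 layer ratio in wild type cells for each compared locus of the lists with 8 or more loci, grouped by list in order of the list median (black bar); dashed lines mark the fold, and red and blue points lie past it towards suprabasal and basal cells. Mitosis stands at the bottom with every locus below 0 and a median of -1.24, and melanocyte markers at the top with a median of 1.84.

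A minority of hair follicle and sebaceous gland genes was past the fold, all towards suprabasal cells. In the hair follicle list 9 of 21 loci were past the fold towards suprabasal and 0 towards basal cells (median 0.77, bitransgenic 0.90), with 4 loci below 0, the lowest Fst, an activin antagonist, at -0.47. Defb6, a beta-defensin, was at 20.3 FPKM in basal and 1450 in suprabasal cells, a log2 ratio of 6.13 with a reference error of 1.04. Lhx2, a factor of hair follicle progenitors, was at 4.33 and 20.2 FPKM (log2 ratio 2.04, reference error 0.65). Sox9, a factor of the outer root sheath that also stands on the basal keratinocyte list, was at 30.1 and 70.2 FPKM (log2 ratio 1.24, reference error 0.44). In the sebaceous gland list 7 of 15 loci were past the fold towards suprabasal and 0 towards basal cells (median 0.85, bitransgenic 1.14). Scd1, the desaturase of sebum lipids, was at 35.4 and 149 FPKM (log2 ratio 2.09, reference error 0.53). Of the 46 listed hair follicle genes 20 were in neither table, the hair shaft keratins Krt35, Krt85 and Krt31 among them. The lists share Krt79.

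Melanocyte genes had the largest ratios of any list at single loci. Of 16 compared loci, 10 were past the fold towards suprabasal and 0 towards basal cells, with a median log2 ratio of 1.84 (bitransgenic 2.13). Since many of its loci are low in basal cells, the median was 1.15 with a pseudocount of 5 FPKM, under the 1.38 of the keratins, and 3.71 with a minimum level of 20 FPKM. Dct, which encodes dopachrome tautomerase of melanin synthesis (chr14:118011228-118052323), was at 4.00 FPKM in basal and 1122 in suprabasal cells, a log2 ratio of 7.86 with a reference error of 1.03. In bitransgenic groups its values were 6.95 and 2012 FPKM. Gpnmb, a membrane glycoprotein of melanosomes, was at 0.813 and 225 FPKM (log2 ratio 7.01), Tyrp1, a melanin enzyme, at 1.04 and 196 FPKM (log2 ratio 6.64), and Pmel, the fibril protein of the melanosome, at 3.35 and 366 FPKM (log2 ratio 6.44). All 4 were below 5 FPKM in basal and above 100 in suprabasal wild type cells. The listed loci with values in both tables summed to 193 FPKM in basal and 2329 in suprabasal wild type cells, and to 239 and 4054 in bitransgenic cells. A further 16 listed loci had a value in the suprabasal table alone, 14 of them at 5 FPKM or more, and their levels added up to 836 FPKM in the wild type and 1609 in the bitransgenic group. Among these were Mlana, a melanosome protein (165 FPKM in wild type), Tyr, the rate-limiting enzyme of melanin synthesis, Mitf, the master factor of the lineage (57.0), Sox10 (38.9), Pax3 (33.9) and the receptor Kit (28.0). No ratio can be given for them, since the basal table lists no value.

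One promoter is shown for this group, because Mitf binds the E-box CATGTG. Of 8 melanocyte markers with a RefSeq promoter, 3 held CATGTG or its reverse CACATG in the 250 bases before the start (37.5%), namely Dct, Tyrp1 and Trpm1, against 6.57% of the promoters of compared genes and 12.2% of all. The cornified envelope promoters held it in 9 of 26 (34.6%), so the share is not particular to melanocyte genes. Trpm1 is an ion channel gene that hosts Mir211 and was at 2.54 FPKM in basal and 100 in suprabasal cells (log2 ratio 4.88, reference error 0.75). Its promoter (chr7:64153585-64153834, plus strand) has the match at -141, in capitals.
Trpm1: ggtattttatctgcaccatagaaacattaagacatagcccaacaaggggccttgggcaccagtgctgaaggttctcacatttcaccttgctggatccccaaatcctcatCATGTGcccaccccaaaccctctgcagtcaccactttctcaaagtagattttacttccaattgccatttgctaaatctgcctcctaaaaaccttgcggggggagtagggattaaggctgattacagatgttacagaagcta

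**Figure D4:**
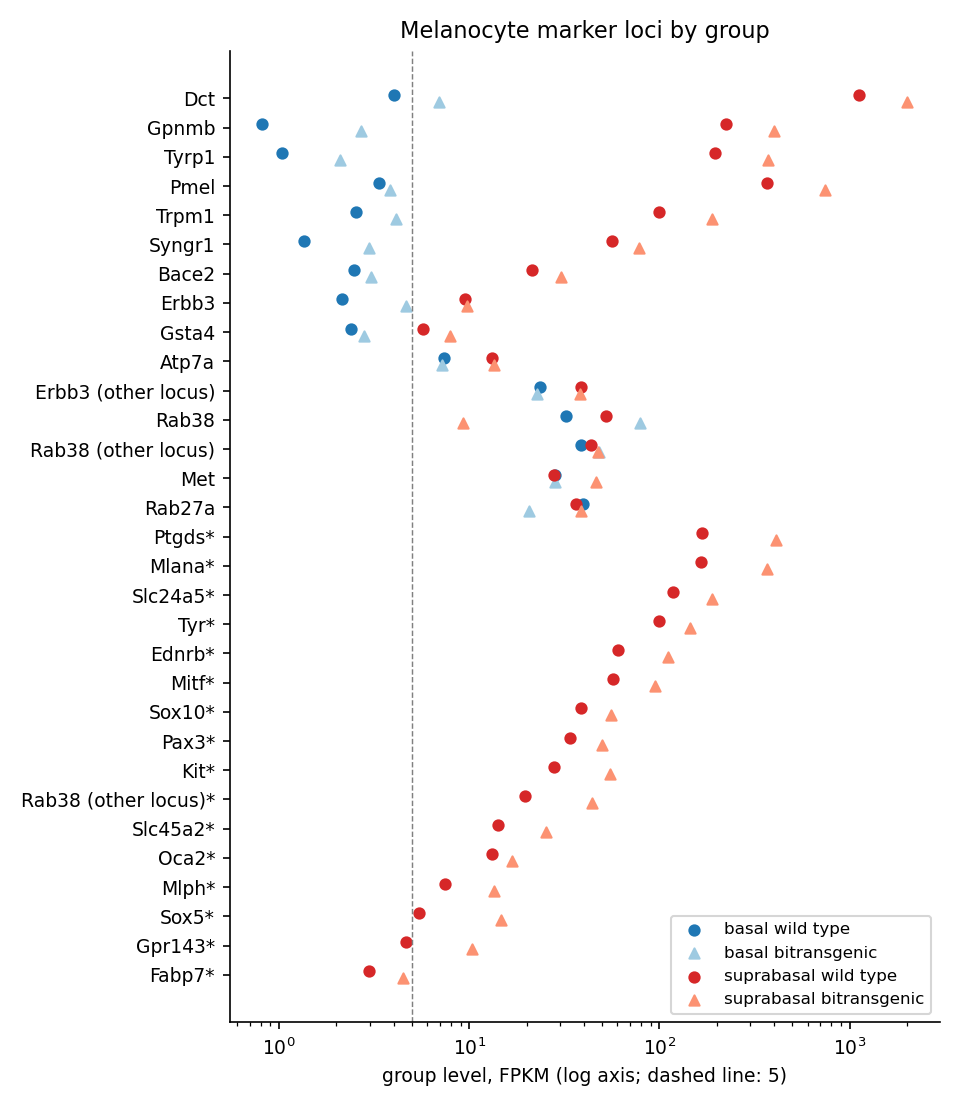
Group levels in FPKM on a log axis of the melanocyte marker loci, apart from 1 that is not reported here, in basal (blue) and suprabasal (red) cells of wild type (circles) and bitransgenic (triangles) mice; loci with an asterisk have a value in the suprabasal table alone, and the dashed line marks 5 FPKM. The leading markers are below 5 in basal wild type cells and reach 1122 FPKM in suprabasal cells, while Met and Rab27a, which keratinocytes also express, are level in wild type.

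Markers of the other cell types gave a mixed picture. In the Schwann cell list 4 of 8 loci were past the fold towards suprabasal and 0 towards basal cells, among them Pmp22 at 2.66 and 12.2 FPKM (log2 ratio 1.90, reference error 0.88). The 8 loci summed to 142 FPKM in basal and 213 in suprabasal wild type cells, and to 112 and 217 in bitransgenic cells. Most of the wild type sums came from loci not particular to Schwann cells. The locus merging L1cam with Arhgap4 and Naa10 gave 62.7 and 50.6 FPKM. Egr2, also on the immediate early list, gave 36.8 and 71.3 FPKM. A further 4 Schwann-list loci had a value in the suprabasal table alone, 47.7 FPKM together in wild type. Of this Sox10, shared with the melanocyte list, gave 38.9 FPKM. Erbb3, a neuregulin receptor, stands on the melanocyte list as well, and the myelin gene Prx was in neither table. Vim, which encodes vimentin, was at 2.32 FPKM in basal and 316 in suprabasal cells (log2 ratio 6.62, reference error 0.94), yet the remaining 8 compared fibroblast markers held 0 past the fold on that side and 3 past it towards basal cells. These 3 were Thy1, Col6a1 and Postn, which also stands on the basal keratinocyte and basement membrane lists. The defining collagens Col1a1 and Col3a1 had a value in the suprabasal table alone, 3.02 FPKM each in wild type, and Pdgfra and Lum were in neither table. Vimentin is made by melanocytes as well as by fibroblasts. Fibroblast-list loci with values in both tables summed to 536 FPKM in basal and 591 in suprabasal wild type cells, and to 369 and 704 in bitransgenic cells. Of the wild type sums, Postn gave 291 and 119 FPKM. A further 7 fibroblast-list loci had a value in the suprabasal table alone, 16.9 FPKM together in wild type and 39.9 in bitransgenic cells. Of 52 leukocyte markers 43 were in neither table, Ptprc (CD45) and the Langerhans cell marker Cd207 among them, and of 4 compared loci 2 were past the fold towards basal and 0 towards suprabasal cells. These were Arhgdib at 69.1 and 30.1 FPKM (log2 ratio -1.13), and Thy1, a surface protein that is also on the fibroblast list, at 28.7 and 12.5 FPKM (log2 ratio -1.10). In the suprabasal table alone stood Kit, shared with the melanocyte list, Mfge8 at 14.9 FPKM and H2-Ab1, an antigen-presenting molecule, at 7.06 FPKM in wild type. For the 5 leukocyte-list loci found in both tables, the basal and suprabasal sums were 157 and 117 FPKM for wild type mice (bitransgenic 236 and 132). Epcam gave 50.4 and 64.1 FPKM of the wild type sums. Kit, Mfge8 and H2-Ab1 lie outside these sums, with a suprabasal total of 49.9 FPKM (bitransgenic 78.4). The sums therefore give no direction for the list as a whole. Endothelial Pecam1 and Cdh5, the muscle genes Acta1 and Ckm, the erythroid genes Hba-a1 and Alas2, the adipocyte gene Adipoq and the Merkel cell factor Atoh1 were in neither table. The 2 compared endothelial loci were both merged with other genes, and 1 of them, Eng with Ak1, was past the fold towards suprabasal cells at 3.90 and 13.3 FPKM (log2 ratio 1.59), while Ramp2 with Vps25 was within it (sums in basal and suprabasal cells of 78.3 and 96.6 FPKM for wild type, 80.1 and 73.1 for bitransgenic mice). The 2 compared adipocyte loci were within the fold, and the 1 compared Merkel locus was the merged keratin locus. Some members of the Merkel, erythroid, adipocyte, muscle and endothelial lists had a value in 1 table alone. In suprabasal wild type cells these were the Merkel genes Cck (5.82 FPKM) and Krt7 (3.12), the erythroid Hbb-bt (1.38) and Hbb-bs (1.21) and the adipocyte Cd36 (3.26). In basal wild type cells these were the muscle gene Tnni2 (9.44) and the endothelial locus of Egfl7, Fam69b and Gm20532 (3.27). What part melanocytes or appendage cells have in the ratios of genes that keratinocytes also express was not tested.

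None of the 28 compared nuclear envelope loci was past the fold (median -0.19). Lmna, which encodes lamin A and C, was at 564 FPKM in basal and 460 in suprabasal cells (log2 ratio -0.25), and Lmnb1, lamin B1, had the lowest ratio with 51.0 and 25.3 FPKM (log2 ratio -0.94, reference error 0.57). None of 29 immediate early loci, which report on tissue handling as well as on signals, was past the fold (median -0.07). Fos was at 1120 and 867 FPKM (log2 ratio -0.32), and the locus of Atf3 and Fam71a had the lowest ratio, -0.90. Oxidative phosphorylation had 3 of 73 loci past the fold, all 3 towards basal cells, with a median of 0.14; the most abundant, Atp5b, was at 634 and 823 FPKM (log2 ratio 0.42). Ribosomal protein genes were split, with 12 of 80 loci past the fold towards basal and 6 towards suprabasal cells (median -0.12), and ribosome biogenesis had 1 of 47 in each direction. Of all compared loci 5.01% were past the fold towards basal and 6.96% towards suprabasal cells. The oxidative phosphorylation count and the suprabasal count of ribosomal protein genes were near these shares. The wound and stress list had 7 of 29 loci past the fold towards suprabasal and 3 towards basal cells, with a median of -0.43. Its suprabasal members were the Sprr loci, Krt17, Krt6a and Gjb2, and its most abundant locus after the merged keratins, Stfa3, which encodes a stefin, was level at 11060 and 10302 FPKM.

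The largest ratios in either direction included loci that hold short RNA genes, whose reads can be counted into the gene that contains them. Srrm2, a splicing factor whose locus contains Mir5125, had the highest ratio of all, 8.72, from 102 FPKM in basal to 42121 in suprabasal cells (bitransgenic 2985 and 46436). Timm23, of the mitochondrial import machinery, with a short RNA model in its span, had the lowest, -9.24, from 12070 to 18.4 FPKM, while its bitransgenic values were 14.1 and 2.58 FPKM. Hspa8, a constitutive heat shock protein whose introns host Snord14c, Snord14d and Snord14e, was at 7624 and 145 FPKM (log2 ratio -5.67, reference error 2.46). Rpl12, which holds Snora65, was at 269 and 22.8 FPKM (log2 ratio -3.45). The remaining 23 compared heat shock loci held 1 past the fold, Hspd1 at -1.02. A short RNA gene lay in 19.3% of the suprabasal-side and 19.7% of the basal-side loci past the fold, against 18.3% of all compared loci, which is close to both. Among the extremes without one were Clec2d, a C-type lectin (320 and 8.86 FPKM, log2 ratio -4.98, bitransgenic 12 and 13.3), Bhlhe41, a circadian repressor (0.297 and 33.1 FPKM, log2 ratio 4.76, reference error 2.98), and Lars2, the mitochondrial leucyl-tRNA synthetase (525 and 56.1 FPKM, log2 ratio -3.16, reference error 0.52).

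The layer ratios of the bitransgenic groups gave a second set of samples of the same layers, although their values come from the same tables and normalization. Of the 662 loci higher in suprabasal wild type cells, 598 (90.3%) had a bitransgenic ratio above 0 and 381 (57.6%) were past the fold in the same direction, while 17 were past it the other way. Of the 477 loci higher in basal wild type cells, 386 (80.9%) were on the same side of 0, 203 (42.6%) were past the fold in the same direction and 27 in the other. The median log2 ratio of the suprabasal-side loci was 1.37 in wild type and 1.18 in bitransgenic groups, and that of the basal-side loci -1.26 and -0.84. These loci were selected on their wild type ratio, so the medians do not compare the genotypes. Without this selection, the standard deviation of the ratio over compared loci was 0.73 in wild type and 0.85 in bitransgenic groups. Mitosis, barrier lipid, cornified envelope and melanocyte medians kept their sign in both genotypes. Other list medians, all small in wild type, did not. From wild type to bitransgenic groups, the desmosome median went from 0.34 to -0.26 and that of gap and tight junctions from 0.15 to -0.12. The oxidative phosphorylation median went from 0.14 to -0.06 and that of fibroblast markers from -0.15 to 0.60. Early differentiation did not stand apart in bitransgenic groups, where its median was 0.01: Krt1 had a log2 ratio of -0.07 there, against 1.03 in wild type, and Krt10 one of 0.59 against 1.55. The difference between the genotypes in these ratios was not tested.

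**Figure D5:**
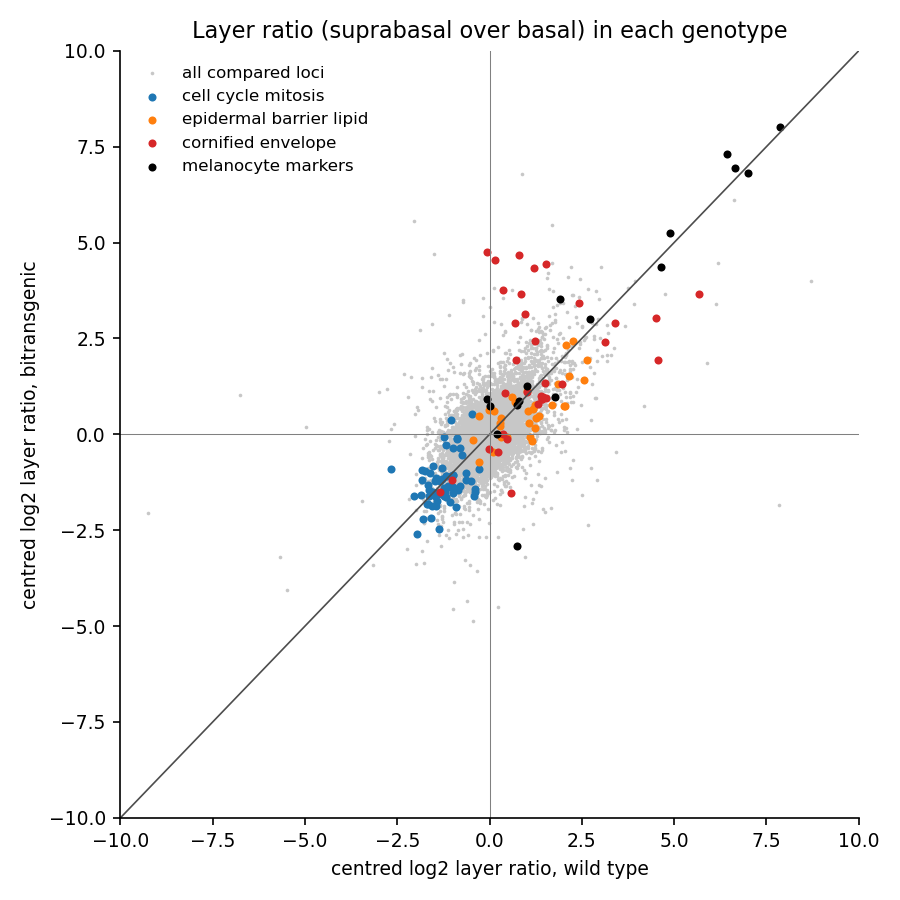
Centred log2 layer ratio of each compared locus in wild type (x axis) and bitransgenic groups (y axis), with the diagonal of equal ratios. Melanocyte markers, apart from 1 locus of Rab38, lie near the diagonal up to Dct at 7.86 and 8.02, nearly all mitosis genes are below 0 on both axes, and a group of envelope genes, among them the Lce1 loci, stands near 0 to 1.53 on the x axis but between 3.14 and 4.74 on the y axis.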

How the data were processed

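Total RNA (10 ng) of sorted keratinocytes was made into strand-specific libraries with a NuGen Ovation kit, per the labels' protocols, and TopHat, Cufflinks and the build mm10 are named in the submitters' processing notes, without versions or settings. The deposited tables give the authors' group levels, 1 per layer and genotype, taken to be FPKM because the tables have the layout of Cuffdiff output, with the authors' log2 fold change and p-value for bitransgenic against wild type. How samples were scaled against each other is not given in the sources used here. Depth per sample is unknown. No value of a single sample was used, and the 26 loci not of status OK, 23 of them mitochondrial, were left out.

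The tables were joined on their locus identifiers, and 10583 loci were of status OK in both. A further 881 loci were of status OK in the suprabasal table alone, 194 of them at 5 FPKM or more in wild type, and 707 in the basal table alone, 135 of them at 5 or more; they entered no ratio. The ratio, with a pseudocount of 1 FPKM, was centred on the median over loci, and no test between layers was possible with 1 value per group. The implied standard error divided the size of the authors' log2 fold change by the normal quantile that belongs to their p-value, two-sided; the lowest p-value in the deposited tables is 5e-05, and there the error is an upper bound. Locus spans were compared with GENCODE M21, and of 9718 single-symbol loci found there on the same chromosome 9717 overlapped the gene of that name. The ratio and its calls were tested on simulated data with noise below the median reference error and changes larger than the fold, placed at loci well above the minimum level. That test checks the calculation and does not show how reliable the calls are in these data. Python 3.11.15 with pandas 2.3.3 and scipy 1.17.1 was used.

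Named genes were the layer markers, the 12 highest and 12 lowest ratios among single-symbol loci that are no predicted models, the 8 highest and 8 lowest at 100 FPKM or more, and of each of the 36 lists the 3 largest in the direction of its median, the 2 most abundant and up to 3 past the fold against it. A few genes that this rule names are not reported here. Companion genes described beside these, and gene families taken by name, were chosen after their values were seen. The comparison, its members and the lists were chosen with earlier results of these data known. Alternatives covered the pseudocount, minimum level, centring, fold and kinds of loci.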

Additional observations from a re-analysis of the deposited data

Results flagged for a closer look

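Among the named loci, 3 had a layer ratio past the fold one way in wild type and past it the other way in bitransgenic groups. With 1 value per group the difference was not tested. Col6a1, a collagen chain of fibroblasts, had a log2 ratio of -1.12 in wild type (5.41 FPKM in basal, 1.86 in suprabasal cells) and 1.67 in bitransgenic groups (0.224 and 2.80 FPKM). Snora68, a small nucleolar RNA, had -2.33 in wild type (100 and 18.6 FPKM) and 1.56 in bitransgenic groups (126 and 362 FPKM). Hist3h2bb-ps, a histone pseudogene, had -2.79 in wild type (6.14 and 0.00189 FPKM) and 1.19 in bitransgenic groups (2.89 and 7.65 FPKM). Their reference errors were 1.80, 5.03 and 6.97 on the log2 scale.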

How the results depend on the processing

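No paired analysis was possible because the tables hold 1 pooled value per group, and replicates could not be left out in turn for the same reason. The count of loci higher in suprabasal wild type cells, 662, became 351 with a pseudocount of 5 FPKM and 134 at a log2 ratio of 2. The count higher in basal cells, 477, became 219 and 24 under these settings. With a minimum level of 20 FPKM the suprabasal and basal counts were 331 and 229. That setting left 4432 loci compared in place of 9518, so its counts are not of the same set. Under the remaining 7 alternatives both counts stayed within 1.5 times, but common sum scaling turned the share of suprabasal-side calls from 58.1% to 46.9%. Of 302 list medians computed under an alternative 9 moved by more than 0.58 (log2 of 1.5): keratins to 0.47 without loci that hold a short RNA gene, melanocyte markers to 1.15 with a pseudocount of 5 and 3.71 with a minimum of 20, and 6 medians of the fibroblast, leukocyte and endothelial lists, which hold few loci. The heat shock median (-0.06) changed sign without loci holding a short RNA gene, and the leukocyte median (-0.39) with a minimum of 1. Of the 161 named loci, 16 were no longer past the fold with a pseudocount of 5: Tgm3 (-0.97), Col4a6 (-0.94), Gjb2 (0.99), Fzd7 (0.98), Fzd1 (0.76), Runx2 (0.71), Serpinb7 (-0.72), Hspd1 (-0.95), Col6a1 (-0.57), Thy1 (-0.91), Sqle, Rpl35a, Ddx18, Polr1c, Sdhc and Wipi1.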
